A study of Mus musculus with 31 samples.

Results

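The interleukin-1 family and its receptors were followed here through 10 genes, taken by symbol from the 38406 genes of each count table. They were the ligand genes Il1a, Il1b, Il18, Il33 and Il1f9 (interleukin-36 gamma), the receptor antagonist gene Il1rn, and the receptor genes Il1r1, Il1r2, Il1rap and Il1rl1. All 10 symbols were in the tables of all 31 libraries, and 9 of the 10 had enough counts to be tested within each day. Il1r1 did not pass the filter on low counts at either day. The members were chosen by symbol and none by a threshold on its values, but with earlier results of these data known.

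The study asked how local radiotherapy changes the immune cells of a mouse mammary tumour. AT3-OVA, a triple-negative mammary carcinoma line that carries ovalbumin, was grown in the mammary fat pad of female wild-type C57BL/6 mice, and CD45.2+ leukocytes were sorted from the tumours for bulk RNA-seq. Every group, the controls included, carried the same tumour and was anaesthetised with ketamine and xylazine. The 4 groups of day 5 after the last treatment were 3x4Gy (3 fractions of 4 Gy given a day apart, 6 libraries), its mock schedule 3x0Gy (4 libraries), 1x20Gy (1 dose of 20 Gy, 6 libraries) and its mock 1x0Gy (4 libraries). The day 13 groups were 1x20Gy with 7 libraries and its mock 1x0Gy with 4. The labels give no age for the mice, and do not say whether any library pooled animals, so the p-values below measure only the spread between libraries. AT3-OVA is 1 line, and a mock tumour was handled but not irradiated.

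Cytokines of this family act through paired receptor chains that share an intracellular signalling domain with the Toll-like receptors. Interleukin-1 alpha and beta bind the receptor encoded by Il1r1 together with the accessory chain encoded by Il1rap, and signal through MyD88 to NF-kB. The antagonist encoded by Il1rn occupies that receptor without signalling, and the decoy receptor encoded by Il1r2 binds interleukin-1 without an intracellular signalling domain. Interleukin-33 acts through the receptor encoded by Il1rl1 (ST2) with the same accessory chain, on mast cells, group 2 innate lymphoid cells and regulatory T cells among others, and is stored in the nuclei of stromal and epithelial cells. In tumours, myeloid cells are a known source of interleukin-1 beta.

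Reads counted in genes numbered 2641229 to 7541144 per library, and the leukocyte genes of the sort marker list (Ptprc, Coro1a, Laptm5, Cd52) were high in every group. Their summed level was also higher after irradiation on day 5, at 3616 to 5080 against 2129 to 3327 CPM after 3x4Gy (2 of 4 called higher, 1 without 3x0Gy library 2) and 3887 to 4849 against 3631 to 3792 CPM after 1x20Gy (0 of 4 called), and on day 13 it was 4184 to 5265 against 3897 to 4317 CPM (0 of 4 called). The mean share of uniquely placed reads outside genes was 24.1% after 3x4Gy against 16.1%, 23.5% after 1x20Gy on day 5 against 16.9%, and 25.8% on day 13 against 20.4%. The part of either measure in the results below was not tested. In 3x0Gy library 2, 5.65% of the uniquely placed reads lay outside genes, against 16.5% to 21.5% in the other 3x0Gy libraries, and this library stood apart for several results below. The edgeR quasi-likelihood test with Benjamini-Hochberg adjustment over all genes called 1477 of 12021 genes (12.3%) at an adjusted p under 0.05 after 3x4Gy, 1028 of 12021 (8.55%) after 1x20Gy on day 5 and 891 of 11071 (8.05%) after 1x20Gy on day 13. The split between directions moved with the scaling. After 3x4Gy it was 625 higher and 852 lower with TMM scaling, 450 and 1110 with upper quartile scaling, and 325 and 1084 with library size alone. After 1x20Gy on day 5 it was 441 and 587, 317 and 745, and 210 and 947 in the same order, and on day 13 it was 467 and 424, 384 and 512, and 222 and 1311.

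On these genome positions (GRCm38, GENCODE M21), the ligand genes Il1a (chr2:129299610-129309972, minus strand) and Il1b (chr2:129364570-129371139, minus strand) lay close together, and Il1f9 (chr2:24186476-24193568) and Il1rn (chr2:24336853-24351494), both on the plus strand, lay elsewhere on chromosome 2. The receptor genes Il1r2 (chr1:40074079-40125231), Il1r1 (chr1:40225080-40317257) and Il1rl1 (chr1:40429570-40465415) followed each other on the plus strand of chromosome 1. Il33 (chr19:29925114-29960718), Il18 (chr9:50554827-50581840) and Il1rap (chr16:26581704-26730117) were single genes on other chromosomes, all on the plus strand. All 10 are annotated as protein coding.

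Promoters of 5 members are shown because their transcripts behaved differently although some are neighbours: Il1a and Il1b, adjacent genes of which 1 fell on day 13, Il1rn and Il1r2, which both rose on day 5, and Il33, which was lower in all 3 comparisons. Each is the 250 bases before a RefSeq transcript start (GRCm38.p6), read on the strand of the gene, with capitals for matches to the motifs searched. Il1a is chr2:129309973-129310222 (minus), Il1b is chr2:129371140-129371389 (minus), Il1rn is chr2:24336610-24336859 (plus), Il1r2 is chr1:40085843-40086092 (plus) and Il33 is chr19:29924863-29925112 (plus).
Il1a: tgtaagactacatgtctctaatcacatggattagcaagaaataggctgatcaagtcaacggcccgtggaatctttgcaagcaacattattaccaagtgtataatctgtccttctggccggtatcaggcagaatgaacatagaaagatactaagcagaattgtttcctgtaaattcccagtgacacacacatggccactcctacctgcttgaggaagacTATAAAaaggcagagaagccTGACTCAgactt
Il1b: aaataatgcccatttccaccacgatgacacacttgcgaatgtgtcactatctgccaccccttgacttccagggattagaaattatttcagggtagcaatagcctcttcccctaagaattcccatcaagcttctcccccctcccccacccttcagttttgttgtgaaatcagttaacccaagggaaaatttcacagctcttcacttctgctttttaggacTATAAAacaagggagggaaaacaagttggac
Il1rn: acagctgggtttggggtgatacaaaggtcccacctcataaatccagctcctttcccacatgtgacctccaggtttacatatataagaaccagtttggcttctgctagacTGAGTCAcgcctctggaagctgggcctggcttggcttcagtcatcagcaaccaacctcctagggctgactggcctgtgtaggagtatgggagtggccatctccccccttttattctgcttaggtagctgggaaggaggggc
Il1r2: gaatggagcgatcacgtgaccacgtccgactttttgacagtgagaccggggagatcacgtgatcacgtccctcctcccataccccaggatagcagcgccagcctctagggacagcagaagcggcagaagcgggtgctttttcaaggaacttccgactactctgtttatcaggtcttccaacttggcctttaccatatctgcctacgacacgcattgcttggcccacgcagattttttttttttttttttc
Il33: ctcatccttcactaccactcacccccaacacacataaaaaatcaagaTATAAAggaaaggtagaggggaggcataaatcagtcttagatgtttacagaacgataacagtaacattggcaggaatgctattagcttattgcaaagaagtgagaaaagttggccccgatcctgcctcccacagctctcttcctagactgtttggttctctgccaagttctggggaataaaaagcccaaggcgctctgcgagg

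The motifs searched, on both strands, were TATAAA, the AP-1 site TGANTCA, the C/EBP site TTGCNNAA and the kappa-B consensus, which NF-kB binds. Il1a held TATAAA from -32 to -27 and an AP-1 match (TGACTCA) from -12 to -6, and the second match is the one nearer the start. Il1b held TATAAA from -31 to -26, almost the same place as in Il1a. Il1rn held an AP-1 match (TGAGTCA) from -141 to -135, Il33 held TATAAA from -203 to -198, and none of the 4 motifs was found in the Il1r2 window. Of 32851 promoters of the same length, 12.4% held TATAAA, 6.75% the AP-1 site, 9.56% the C/EBP site and 7.25% the kappa-B consensus. These are matches of letters and not measured sites. The Il1r2 window lies inside the gene as annotated here, which begins at position 40074079, so the bases before that start were not searched. RefSeq gives Il1rn 3 starts and Il33 2, of which the first is printed for each, and gene counts do not tell which start was used. The window of the other Il33 start (chr19:29945540-29945789) held TATAAA from -29 to -24 and a C/EBP match (TTGCATAA) from -85 to -78. The windows of the other Il1rn starts held no match.

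**Figure D1:**
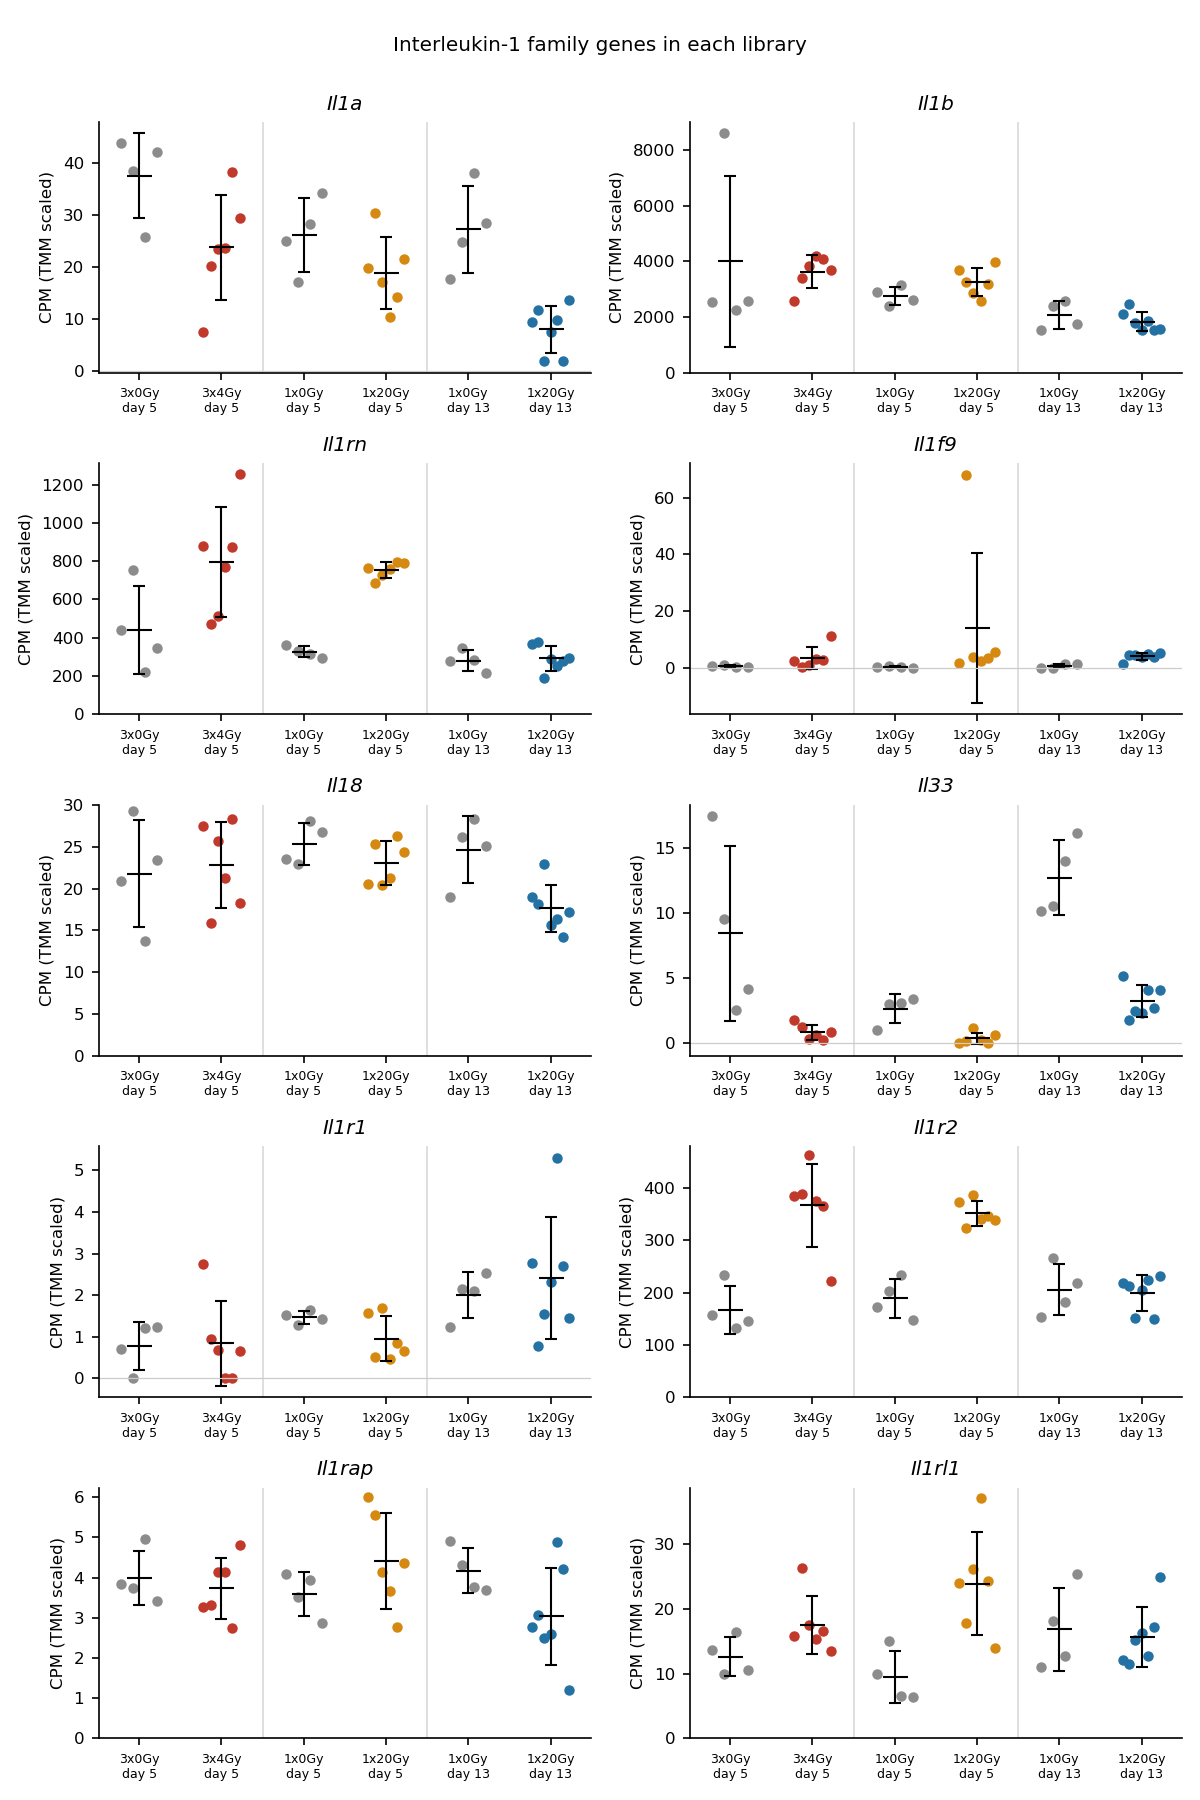
CPM (TMM scaled) of each of the 10 genes in each library (points), by group, with the mean and SD (bars); grey points are mock groups. Il33 lies lower in irradiated than in mock groups, Il1rn and Il1r2 lie higher on day 5 and not on day 13, and single libraries stand out for Il1b (8618 CPM after 3x0Gy) and Il1f9 (68.1 CPM after 1x20Gy).

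Levels can be compared between genes only per length, so CPM (counts per 1000000 counts of the library, TMM scaled) was divided by the kilobases of exon of each gene. On that scale Il1b was the highest of the 10 in every group, with group means from 963 to 2095 CPM per kb. Il1r2 followed at 87.1 to 192 and Il1rn at 50.7 to 143 CPM per kb, so the decoy and antagonist genes came directly after the cytokine they oppose. After 1x20Gy on day 13, for instance, Il1r2 stood at 104 ± 18 (SD, n = 7) and Il1rn at 52.7 ± 11.8. After 3x4Gy the 2 genes lay within their spread, at 192 ± 41 and 143 ± 52 CPM per kb (n = 6). Il18 (17.1 to 24.6) and Il1a (4.03 to 19.1) came next, and in 3x0Gy libraries these neighbours did not differ beyond their spread (21.2 ± 6.3 and 19.1 ± 4.1, n = 4). Il1rl1, Il33, Il1f9, Il1rap and Il1r1 had group means under 10 CPM per kb in all 6 groups. The signalling receptor chains Il1r1 (0.123 to 0.379) and Il1rap (0.267 to 0.389) lay far under the decoy receptor gene Il1r2 in every group.

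Among the ligands, Il1b was abundant and was not called in any comparison. In CPM it measured 2578 to 4202 after 3x4Gy (median 3760, n = 6), and 2523, 8618, 2269 and 2568 in the 4 libraries of 3x0Gy. The single library at 8618 was 3x0Gy library 2, and the 6 irradiated libraries all lay above the other mock libraries. The log2 fold change was -0.14 (SE 0.28, edgeR adjusted p = 0.774) with all libraries, and 0.56 (adjusted p = 0.0247) without 3x0Gy library 2, so this library decided both the direction and the call. That library also had the highest summed level of the monocyte and macrophage markers of its group (20410 CPM, against 6651 to 10632 in the others), and the part of this in the Il1b result was not tested.

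On day 5 after 1x20Gy, Il1b measured 2561 to 3961 CPM (median 3220, n = 6) against 2885, 2388, 3161 and 2604 CPM after 1x0Gy. The groups overlapped, and the change on the log2 scale was 0.24 (SE 0.28, edgeR adjusted p = 0.679). On day 13 it measured 1533 to 2476 CPM (median 1794, n = 7) after 1x20Gy and 1539, 2407, 2588 and 1739 CPM after 1x0Gy, again with overlap, and the log2 change was -0.17 (SE 0.17, adjusted p = 0.589; 95% interval -0.53 to 0.18).

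Il1a, whose product is held in cells as an active precursor, fell on day 13. It measured 1.81 to 13.6 CPM (median 9.34, n = 7) after 1x20Gy and 17.8, 24.8, 38.0 and 28.4 CPM after 1x0Gy. All 7 irradiated libraries lay below all 4 mock libraries. This was a log2 fold change of -1.77 (SE 0.37, edgeR adjusted p = 0.00910), a level 3.41 times lower. Without 1x0Gy library 3 it was -1.56 and the adjusted p rose to 0.0538. The summed monocyte and macrophage markers ran from 6406 to 8578 CPM after 1x20Gy on day 13 and from 8584 to 11131 CPM after 1x0Gy, with 3 of 10 called lower (Csf1r, C1qb and Apoe). The part of this in the Il1a result was not tested, and in bulk samples fewer cells of a type and less RNA per cell cannot be told apart.

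On day 5 the same gene did not pass the test. Il1a measured 7.52 to 38.3 CPM (median 23.6) after 3x4Gy and 43.9, 38.5, 25.9 and 42.2 CPM after 3x0Gy, and 4 of 6 irradiated libraries lay below every mock library (log2 fold change -0.66, SE 0.31, edgeR adjusted p = 0.164). After 1x20Gy it measured 10.3 to 30.5 CPM (median 18.5) against 25.0, 17.1, 28.3 and 34.2 CPM (log2 fold change -0.46, SE 0.31, adjusted p = 0.405). The neighbouring genes Il1a and Il1b thus differed in outcome on day 13, where Il1a was called lower and Il1b was not called.

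Il33, an alarmin released by damaged cells, fell in every comparison of irradiated with mock tumours. After 3x4Gy it measured 0.229 to 1.75 CPM (median 0.732, n = 6), and after 3x0Gy 17.4, 9.54, 2.57 and 4.19 CPM. No irradiated library reached the lowest mock library. Il33 had a log2 fold change of -3.22 (SE 0.60, edgeR adjusted p = 0.00111), 9.34 times lower, and it was -2.59 (adjusted p = 0.0108) without 3x0Gy library 1, the mock library with the highest level.

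Il33 after 1x20Gy on day 5 measured 0 to 1.13 CPM (median 0.202, n = 6), with 11 counts over the 6 libraries, and after 1x0Gy 1.02, 3.04, 3.11 and 3.40 CPM. Of the irradiated libraries, 5 of 6 lay below all mock libraries. That gave a log2 fold change of -2.70 (SE 0.70, edgeR adjusted p = 0.0168), 6.48 times lower. It was -3.49 without 1x20Gy library 3, and the adjusted p rose to 0.0512 without 1x0Gy library 3 (-2.60) and to 0.0563 without 1x0Gy library 4 (-2.55). In a fit of the 1x20Gy and 1x0Gy libraries alone the gene did not pass the filter and was not tested. On day 5 the level of the filter was reached by 7 of 8 mock libraries and by 0 of 12 irradiated ones, and on day 13 by 4 of 4 mock and 3 of 7 irradiated libraries.

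On day 13 the Il33 values of 1x20Gy and 1x0Gy libraries stood above those of the same treatments on day 5. CPM were scaled within each day, so these levels are not on a common scale. Day and experiment also cannot be told apart, because the sample codes in the labels differ between the days. On day 13 Il33 measured 1.79 to 5.19 CPM (median 2.71, n = 7) after 1x20Gy and 10.1, 10.5, 14.0 and 16.2 CPM after 1x0Gy, with no overlap. The log2 fold change was -1.99 (SE 0.26, edgeR adjusted p = 7.02e-04), 3.97 times lower, and stayed between -2.12 and -1.85 with any 1 library left out.

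Because leukocytes were sorted, the markers of other cells were read beside Il33. The summed level of 7 fibroblast markers (Col1a1 and Sparc among them) was 15.1 to 46.9 CPM after 3x4Gy and 68.5 to 178 after 3x0Gy, with 5 of the 5 that passed the filter called lower. After 1x20Gy on day 5 it was 11.3 to 64.2 against 49.9 to 177 CPM, with 1 of 5 called lower, and on day 13 it was 13.0 to 32.2 against 35.8 to 69.0 CPM, with 3 of 5 called lower. In 4 of the 6 groups the library with the highest Il33 also had the highest fibroblast sum of its group. These were 3x4Gy library 1, 3x0Gy library 1, 1x20Gy library 3 of day 5 (6 Il33 counts) and 1x20Gy library 1 of day 13. In the 1x0Gy groups the highest Il33 was in library 4 of each day. Library 4 had rank 2 in the fibroblast sum on day 5 and the lowest sum on day 13 (35.8 CPM). In 3x0Gy, library 2 had 9.54 CPM of Il33 and the lowest fibroblast sum of its group (68.5 CPM). The 7 epithelial and tumour markers, such as Krt14 and Epcam, summed to 158 to 690 against 473 to 1084 CPM after 3x4Gy (2 of 7 called lower). After 1x20Gy on day 5 the sum was 152 to 505 against 423 to 612 CPM (4 of 7 called lower). On day 13 it was 660 to 1879 against 637 to 862 CPM (1 of 6 called lower and 1 called higher). This sum was also the highest of its group in 3x0Gy library 1, 1x20Gy library 3 of day 5 and 1x20Gy library 1 of day 13. It had rank 2 in 3x4Gy library 1 and rank 3 in library 4 of both 1x0Gy groups. The summed level of the 5 endothelial markers was higher after irradiation, although Tek had only 4 counts over all 31 libraries. Their sum was 120 to 155 against 58.2 to 77.0 CPM after 3x4Gy and 96.7 to 156 against 59.8 to 89.8 CPM after 1x20Gy on day 5. On day 13 it was 77.5 to 177 against 60.1 to 76.9 CPM. Of the 4 that passed the filter, 2, 1 and 2 were called higher in the same order. No defining marker of these lists was at 0 throughout, and the part of these cells in the Il33 result was not tested.

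Il1f9, the gene of interleukin-36 gamma, a ligand best known from epithelium and neutrophil-rich inflammation, was near the limit of detection in mock tumours and higher after 1x20Gy. On day 5 it measured 1.57 to 68.1 CPM (median 3.58, n = 6) after 1x20Gy and 0.255, 0.479, 0.327 and 0 CPM after 1x0Gy. The groups did not overlap, but 1x20Gy library 2 alone lay far above the other 5, which ran from 1.57 to 5.46 CPM. Its log2 fold change was 5.61 (SE 1.28, edgeR adjusted p = 0.00811), and 3.52 (adjusted p = 0.0143) without that library. The fitted change rests on 7 mock counts in all and depends on the prior count. Il1f9 reached the level of the filter in irradiated libraries only, 5 of 6 after 1x20Gy, so a gene tested here had to be higher in them.

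Il1f9 on day 13, where the same limit holds with 11 mock counts, measured 1.38 to 5.32 CPM (median 4.35, n = 7) after 1x20Gy and 0, 0, 1.25 and 1.15 CPM after 1x0Gy, again without overlap. The log2 fold change was 2.55 (SE 0.56, edgeR adjusted p = 0.0112), and it was not called in the fit of all 31 libraries (2.56, adjusted p = 0.181). After 3x4Gy the gene measured 0.316 to 11.3 CPM (median 2.50, n = 6) and after 3x0Gy 0.697, 1.02, 0.171 and 0.310 CPM. Although 5 of 6 irradiated libraries lay above all mock libraries, the change was not called (log2 fold change 2.83, SE 1.41, adjusted p = 0.190), and it was 1.91 without 3x4Gy library 6.

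Neutrophil markers moved alongside. The summed level of the 10 markers was 81.6 to 649 CPM after 1x20Gy on day 5 and 45.3 to 118 after 1x0Gy, 126 to 298 against 77.9 to 123 on day 13, and 52.4 to 277 against 26.9 to 144 after 3x4Gy. The 649 CPM were in 1x20Gy library 2 and the 277 CPM in 3x4Gy library 6, the same libraries that held the highest Il1f9 of their groups. The match was not particular to neutrophils. Library 2 also had the highest mature dendritic cell, mast cell and basophil, NK cell and endothelial sums of its group. Library 6 of 3x4Gy also had the highest endothelial sum. On day 13 the highest Il1f9 was in 1x20Gy library 7, which had rank 2 in the neutrophil sum (295 CPM). Of the markers that passed the filter, 3 of 9 were called higher after 1x20Gy on day 5 (Cxcr2, Mmp9 and Trem1), 4 of 7 on day 13 (S100a8, S100a9, Mmp9 and G0s2) and 1 of 9 after 3x4Gy (Trem1). Ly6g, a defining neutrophil marker, had 0 counts in all 31 libraries. The part of neutrophils in the Il1f9 result was not tested.

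Il18, which is made as a precursor and cut by caspase-1, was called in no comparison. It measured 15.9 to 28.4 CPM (median 23.5) after 3x4Gy against 20.9, 29.3, 13.7 and 23.4 CPM, and 20.5 to 26.3 CPM (median 22.9) after 1x20Gy on day 5 against 23.6, 23.0, 28.2 and 26.9 CPM. Neither was called (log2 fold changes 0.08, SE 0.19, edgeR adjusted p = 0.811, and -0.14, SE 0.18, adjusted p = 0.722), and the first changed sign with library size scaling (-0.01). On day 13 it measured 14.2 to 23.0 CPM (median 17.2) against 19.0, 26.2, 28.4 and 25.2 CPM, and the log2 change was -0.49 (SE 0.16, adjusted p = 0.0715). That value was called at -0.72 (adjusted p = 0.0150) with library size scaling, which moved the median of all genes to -0.23, and also without 1x20Gy library 3 (-0.56, adjusted p = 0.0426) and without 1x0Gy library 1 (-0.59, adjusted p = 0.0478). In these day 13 libraries the clone-named gene RP23-81C12.3 alone took 19.2% to 31.5% of all counts after 1x20Gy and 2.15% to 15.01% after 1x0Gy, and its part in the scaling was not tested.

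**Figure D2:**
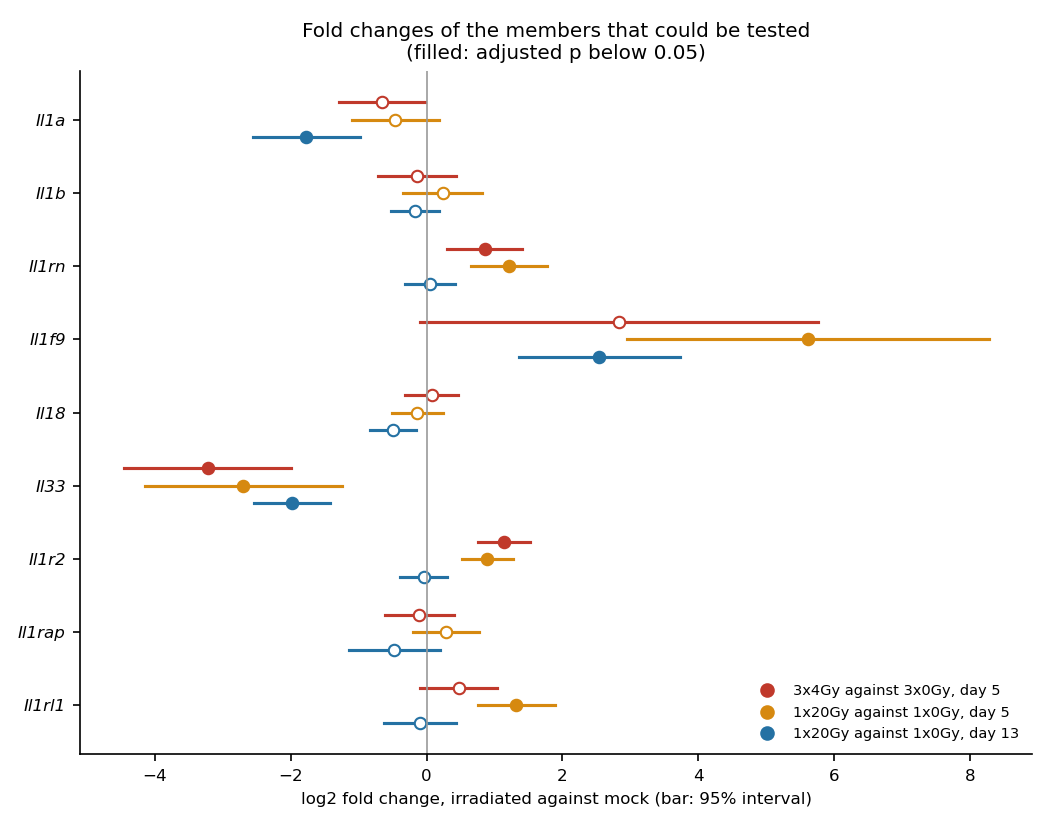
Log2 fold changes of the 9 genes that could be tested, irradiated against mock, with 95% intervals (horizontal bars) and 1 colour per comparison; filled points had an adjusted p under 0.05. Il33 lies to the left of 0 in all 3 comparisons, and Il1rn and Il1r2 lie to the right on day 5 and at 0 on day 13.

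The antagonist gene Il1rn rose on day 5. After 1x20Gy it measured 685 to 795 CPM (median 762, n = 6) and after 1x0Gy 362, 332, 314 and 295 CPM. Every irradiated library lay above every mock library, and the irradiated libraries were close to each other. Its log2 fold change was 1.21 (SE 0.27, edgeR adjusted p = 0.00661), 2.31 times higher, and it ran from 1.16 to 1.26 with any 1 library left out.

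After 3x4Gy, Il1rn measured 472 to 1258 CPM (median 823, n = 6) and after 3x0Gy 439, 756, 219 and 346 CPM. Of the irradiated libraries 4 of 6 lay above all mock libraries. Il1rn thus had a log2 fold change of 0.85 (SE 0.27, edgeR adjusted p = 0.0387), 1.81 times higher. This call was near the threshold: it was lost with upper quartile scaling (0.77, adjusted p = 0.0504), with a fit of the 2 groups alone (0.84, adjusted p = 0.168), without 3x4Gy library 1, 4, 5 or 6 (0.82, 0.86, 0.82 and 0.67, adjusted p from 0.0555 to 0.0971) and without 3x0Gy library 1, 3 or 4 (0.85, 0.63 and 0.75, adjusted p from 0.0773 to 0.109). Without 3x0Gy library 2 it was 1.25 (adjusted p = 0.00186).

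On day 13 Il1rn measured 187 to 377 CPM (median 288, n = 7) after 1x20Gy and 278, 347, 281 and 215 CPM after 1x0Gy. The groups overlapped (log2 fold change 0.06, SE 0.17, edgeR adjusted p = 0.884; 95% interval -0.31 to 0.43), and the sign turned with library size scaling (-0.16).

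The decoy receptor gene Il1r2 rose after both regimens on day 5. After 3x4Gy it measured 223 to 463 CPM (median 380, n = 6) and after 3x0Gy 156, 233, 132 and 144 CPM. Of the 6 irradiated libraries 5 lay above all mock libraries, and the lowest, library 6 at 223 CPM, lay under 1 of them. Its log2 fold change was 1.14 (SE 0.18, edgeR adjusted p = 2.98e-04), 2.21 times higher. After 1x20Gy Il1r2 measured 324 to 386 CPM (median 344, n = 6) against 173, 204, 233 and 148 CPM, without overlap, and the log2 change was 0.89 (SE 0.18, adjusted p = 0.00329), 1.86 times higher. Both calls held with any 1 library left out. Mature dendritic cell markers, such as Ccr7 and Relb, were read beside Il1r2 and Il1rn. Their sum was 332 to 601 against 212 to 307 CPM after 3x4Gy (3 of 6 called higher). After 1x20Gy it was 308 to 606 against 228 to 381 CPM (2 of 6 called higher). The sum of 7 regulatory T cell markers was 481 to 1050 against 247 to 491 CPM after 3x4Gy. It was 492 to 1290 against 161 to 425 CPM after 1x20Gy, with 5 of 7 called higher in each comparison. Without 3x0Gy library 2, 4 of 7 regulatory T cell markers were called higher after 3x4Gy. On day 13, where neither Il1r2 nor Il1rn was called, the mature dendritic cell sum was 214 to 330 against 178 to 277 CPM (1 of 6 called higher). The regulatory T cell sum of day 13 was 663 to 1164 against 453 to 699 CPM (2 of 7 called higher). The part of these cells in the Il1r2 and Il1rn results was not tested.

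On day 13 Il1r2 measured 149 to 233 CPM (median 213, n = 7) after 1x20Gy and 154, 266, 182 and 219 CPM after 1x0Gy, with overlap, and the log2 fold change was -0.04 (SE 0.16, edgeR adjusted p = 0.907; 95% interval -0.39 to 0.30).

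Il1rl1, which encodes the interleukin-33 receptor ST2, rose after 1x20Gy on day 5. It measured 14.0 to 37.1 CPM (median 24.1, n = 6) after 1x20Gy and 9.95, 15.02, 6.55 and 6.45 CPM after 1x0Gy. Of the 6 irradiated libraries 5 lay above all mock libraries, and the log2 fold change was 1.32 (SE 0.27, edgeR adjusted p = 0.00373), 2.50 times higher. In the same comparison the ligand gene Il33 was 6.48 times lower.

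After 3x4Gy, Il1rl1 measured 13.5 to 26.4 CPM (median 16.1, n = 6) against 13.6, 9.88, 16.4 and 10.5 CPM, and was not called (log2 fold change 0.47, SE 0.27, edgeR adjusted p = 0.261). On day 13 it measured 11.5 to 24.9 CPM (median 15.2, n = 7) against 11.03, 18.1, 12.8 and 25.4 CPM (log2 fold change -0.10, SE 0.25, adjusted p = 0.859). The groups overlapped in both.

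Markers of cell types known to carry ST2 were read beside it. In the 1x20Gy comparison of day 5 the 9 mast cell and basophil markers summed to 101 to 155 CPM against 35.5 to 64.2, and 5 of the 7 that passed the filter were called higher (Cpa3, Mcpt4, Mcpt8, Cma1 and Gata2). The 7 regulatory T cell markers summed to 492 to 1290 CPM against 161 to 425, with 5 of 7 called higher, Foxp3 and Ctla4 among them. The 6 markers of group 2 innate lymphoid cells summed to 129 to 301 CPM against 60.3 to 118, with 2 of 3 called higher (Rora and Areg). 1x20Gy library 4, which had the highest Il1rl1 of its group (37.1 CPM), also had the highest regulatory T cell sum (1290 CPM) and the highest group 2 innate lymphoid cell sum (301 CPM), while its mast cell and basophil sum was 106 CPM, near the low end of its group. After 3x4Gy, where Il1rl1 was not called, the regulatory T cell sum was 481 to 1050 against 247 to 491 CPM. Of its markers 5 of 7 were called higher, and 4 of 7 without 3x0Gy library 2. The group 2 innate lymphoid cell sum was 120 to 276 against 72.6 to 115 CPM, with 1 of 3 called higher. The mast cell and basophil sum after 3x4Gy was 44.6 to 163 against 50.2 to 142 CPM, with 1 of 7 called higher. On day 13 Il1rl1 was not called either. The group 2 innate lymphoid cell sum was then 176 to 317 against 114 to 175 CPM (2 of 4 called higher), and 2 of 7 regulatory T cell markers were called higher. The mast cell and basophil sum of day 13 was 77.1 to 284 against 55.8 to 165 CPM, with 0 of 6 called. Of the defining markers, Ms4a2 had 24 counts and Il5 had 6 counts over all 31 libraries. The part of these cells in the Il1rl1 result was not tested.

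The signalling receptor chains were low and were called in no comparison. Il1rap measured 2.75 to 4.80 CPM (median 3.72) after 3x4Gy against 3.41 to 4.97 after 3x0Gy, 2.76 to 6.00 (median 4.25) after 1x20Gy on day 5 against 2.86 to 4.08, and 1.21 to 4.90 (median 2.77) on day 13 against 3.70 to 4.90. The log2 fold changes were -0.10 (SE 0.25), 0.29 (SE 0.24) and -0.48 (SE 0.32), with edgeR adjusted p of 0.809, 0.521 and 0.396. The groups overlapped in all 3.

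Il1r1, the signalling receptor of interleukin-1, had 191 counts over the 31 libraries. It measured 0 to 2.76 CPM (median 0.673) after 3x4Gy and 0.697, 0, 1.20 and 1.24 CPM after 3x0Gy. After 1x20Gy on day 5 it measured 0.458 to 1.69 CPM (median 0.752) against 1.53, 1.28, 1.64 and 1.43 CPM, and on day 13 0.767 to 5.31 CPM (median 2.31) against 1.23, 2.16, 2.09 and 2.54 CPM. The differences in mean log2 CPM were -0.15, -0.63 and -0.09 (two-sided exact permutation p = 0.819, 0.0762 and 0.842, unadjusted). The smallest two-sided p such a test allows is 0.00952 for 6 against 4 libraries and 0.00606 for 7 against 4. The groups overlapped in all 3, although 4 of 6 libraries after 1x20Gy on day 5 lay below all mock libraries, and no difference was detected.

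Counted over the members that passed the filter, 2 of 9 were called higher and 1 lower after 3x4Gy (3 higher and 1 lower without 3x0Gy library 2), where 5.2% of all genes were called higher and 7.09% lower. For 1x20Gy on day 5, 4 of 9 were called higher and 1 lower, where 3.67% and 4.88% of all genes were. On day 13, 1 of 9 was called higher and 2 lower, where 4.22% and 3.83% of all genes were. On day 5 Il1f9 passed the filter through irradiated and Il33 through mock libraries alone, as Il1f9 did through irradiated ones on day 13, so their calls add no support to these counts. These counts describe the 9 genes, which were chosen with earlier results of these data known, and are no test of the family.

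The levels of Il1rn and Il1r2 were also read within each library as counts per 100 Il1b counts, a measure that does not depend on scaling. It was chosen after Il1rn and Il1r2 were seen to rise and Il1b was not called, so it is a description with no test and adds no support to those results. The day 5 libraries after 1x20Gy held 23.6 ± 3.8 Il1rn counts (SD, n = 6, range 19.9 to 29.7) per 100 Il1b counts, against 11.9 ± 1.7 (n = 4, range 9.94 to 13.9). For Il1r2 the values were 11.1 ± 2.0 (8.54 to 13.5) and 6.89 ± 1.3 (5.67 to 8.53). Neither pair of groups overlapped.

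After 3x4Gy the Il1r2 value was 10.4 ± 3.1 (n = 6) against 5.08 ± 1.6 per 100 Il1b counts (n = 4), with overlap of 1 irradiated library (6.03) and 1 mock library (6.19), and without 3x0Gy library 2 the mock mean was 5.87 ± 0.29 (n = 3). The Il1rn value was 22.5 ± 9.4 against 12.3 ± 3.9, with overlap, and without 3x0Gy library 2 the mock mean was 13.5 ± 3.9. On day 13 the values were 16.0 ± 3.1 (n = 7) against 13.9 ± 3.1 (n = 4) for Il1rn and 11.1 ± 2.4 against 10.2 ± 2.3 for Il1r2, and the groups overlapped.

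**Figure D3:**
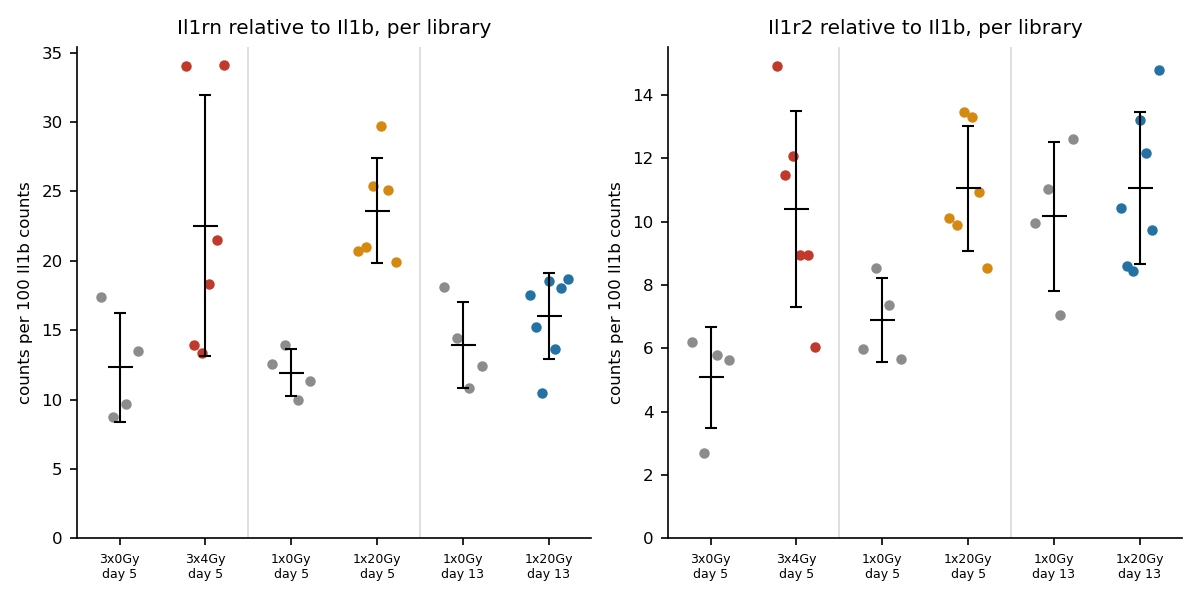
Counts of Il1rn (left) and Il1r2 (right) per 100 Il1b counts in each library (points), with mean and SD (bars), by group. The 6 libraries of 1x20Gy on day 5 lie above their 4 mock libraries in both panels (19.9 to 29.7 against 9.94 to 13.9 for Il1rn), and the day 13 groups overlap.

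The regimens were compared by the difference of their responses on day 5, each against its own mock. The edgeR test called 0 of 12021 genes (0%), with 714 at an unadjusted p under 0.05, and DESeq2 called 1. Among the members the difference (3x4Gy minus 1x20Gy, log2) was 0.25 for Il1r2 (95% interval -0.27 to 0.77), -0.35 for Il1rn (-1.12 to 0.41), -0.53 for Il33 (-2.79 to 1.73), -2.78 for Il1f9 (-7.70 to 2.13) and -0.85 for Il1rl1 (-1.64 to -0.06; unadjusted p = 0.0367, edgeR adjusted p = 0.804). Il1rl1 was thus called after 1x20Gy and not after 3x4Gy, but its difference between the regimens did not pass the adjustment. The sign of the difference turned without 3x0Gy library 2 for Il1b (from -0.38 to 0.36) and Il1rn (0.08), and for Il33 without 3x0Gy library 1 (0.11) or 1x20Gy library 3 (0.28). The intervals of Il1rn, Il33, Il1f9 and Il1rl1 hold differences of more than 1 log2 unit, and for no member do the data show that the regimens act alike.

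As background, the mock schedules 3x0Gy and 1x0Gy were compared on day 5. The edgeR test called 0 of 12021 genes (0%), with 667 at an unadjusted p under 0.05, and DESeq2 called 2. The largest member differences, apart from Il1f9 with its few counts, were 1.62 for Il33 (SE 0.58, unadjusted p = 0.0110, adjusted p = 0.836), 0.53 for Il1b (SE 0.31, adjusted p = 0.836) and 0.52 for Il1a (SE 0.34, adjusted p = 0.837). The Il33 difference was 0.99 without 3x0Gy library 1, and the Il1b difference was -0.19 without 3x0Gy library 2.

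The 1x20Gy responses of day 13 and day 5 were also compared, each against the mock of its day. The edgeR test over all 31 libraries called 51 of 12061 genes (0.423%), none of them a member. The difference (day 13 minus day 5, log2) was -1.13 for Il1rn (SE 0.33, adjusted p = 0.102), -0.92 for Il1r2 (SE 0.25, adjusted p = 0.0827), -1.39 for Il1rl1 (SE 0.38, adjusted p = 0.0906), -1.30 for Il1a (SE 0.51, adjusted p = 0.261) and 0.71 for Il33 (SE 0.73, adjusted p = 0.768). DESeq2 called Il1r2 (-0.91, adjusted p = 0.0353) and Il1rl1 (-1.39, adjusted p = 0.0388). That Il1rn, Il1r2 and Il1rl1 were called on day 5 and not on day 13 is therefore not, by the main test, a tested difference between the days, and day cannot be told apart from experiment.

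**Figure D4:**
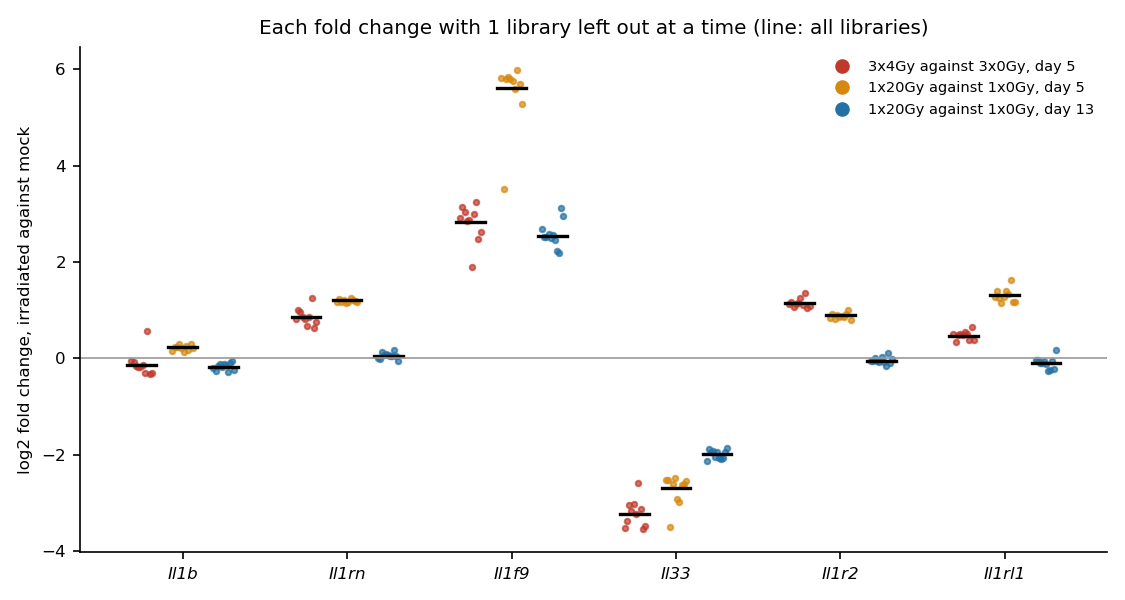
Log2 fold changes of 6 genes with 1 library left out at a time (points) and with all libraries (black line), 1 colour per comparison. The single high point of Il1b after 3x4Gy (0.56) is without 3x0Gy library 2, and the single low point of Il1f9 after 1x20Gy on day 5 (3.52) is without 1x20Gy library 2.

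The other genes of the pathway were read in 4 lists. Over all genes, 5.2% were called higher and 7.09% lower after 3x4Gy, and 3.67% and 4.88% after 1x20Gy on day 5. On day 13 the shares were 4.22% and 3.83%. They are the background for the list counts below and for the marker lists above. A single call in a list this short lies close to them, so the counts describe single genes and test no list. Of 11 other ligands and receptors of the family, 4 passed the filter (Il18r1, Il18rap, Il18bp and Sigirr). The ligand genes Il1f6 and Il1f10 had 0 counts in all 31 libraries, and Il1f5 and Il1f8 had 2 and 1 counts in all. None of the 4 was called on day 5, where their median log2 fold change was 0.43 after 3x4Gy and 0.71 after 1x20Gy (over all genes -0.00 and 0.02). On day 13 the interleukin-18 receptor chains Il18r1 (log2 fold change 1.21, SE 0.23, edgeR adjusted p = 0.00530) and Il18rap (0.89, SE 0.22, adjusted p = 0.0219) rose, and Il18bp, which encodes a secreted protein that binds interleukin-18, fell (-0.67, SE 0.18, adjusted p = 0.0279). Il18r1 measured 74.4 to 160 CPM after 1x20Gy and 30.9 to 72.8 CPM after 1x0Gy, without overlap. NK cells carry this receptor, and 3 of 5 NK cell markers were called higher in the same comparison (Ncr1, Klra8 and Eomes), a part that was not tested.

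Of the 11 inflammasome and processing genes, 2 were called higher and 0 lower after 3x4Gy, 1 and 0 after 1x20Gy on day 5, and 0 of 10 on day 13. The gene called after both regimens was Mefv, which encodes the sensor pyrin. It measured 55.9 to 92.3 CPM after 3x4Gy against 15.8 to 50.1 CPM (log2 fold change 1.36, SE 0.28, edgeR adjusted p = 0.00246) and 50.9 to 100.3 CPM after 1x20Gy against 20.9 to 39.1 CPM (1.30, SE 0.27, adjusted p = 0.00364), with no overlap in either. Casp4, the caspase that senses cytosolic lipopolysaccharide, was called after 3x4Gy (0.66, SE 0.21, adjusted p = 0.0396). Without 3x0Gy library 2 Casp4 was not called (0.62, adjusted p = 0.0894), and Gsdmd, which encodes the pore protein gasdermin D, was (0.62, adjusted p = 0.0131). Casp1, which cuts the precursors of interleukin-1 beta and interleukin-18, was not called (log2 fold changes -0.35, -0.39 and -0.46, adjusted p = 0.144, 0.125 and 0.140). The list's median was 0.32, 0.20 and -0.03 in the 3 comparisons, against -0.00, 0.02 and 0.01 over all genes.

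Of the 14 receptor signalling genes 1 was called higher after 3x4Gy (Sqstm1, the adaptor p62, 0.46, SE 0.13, edgeR adjusted p = 0.0209). Without 3x0Gy library 2 Sqstm1 was not called (0.35, adjusted p = 0.0627), and the adaptor gene Myd88 was (0.56, adjusted p = 0.0196). On day 5 after 1x20Gy, 1 was called higher (Irak3, which inhibits this signalling, 0.93, SE 0.29, adjusted p = 0.0478) and 1 lower (Ube2n, a ubiquitin-conjugating enzyme, -0.52, SE 0.14, adjusted p = 0.0240). On day 13, 1 was called lower (Irak2, a kinase of the same complex, -0.44, SE 0.12, adjusted p = 0.0379). The list's medians were 0.04, 0.00 and 0.11, near those of all genes.

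Of 15 response genes of interleukin-1 and NF-kB, 13 passed the filter on day 5 and 11 on day 13. After 3x4Gy 2 of 13 were called higher and 1 lower (4 and 1 without 3x0Gy library 2, when Nfkbia and Zc3h12a were called as well), after 1x20Gy on day 5 5 were called higher and 1 lower, and on day 13 0 of 11 were called higher and 1 lower. The list's medians were 0.51, 0.57 and 0.15. Ptgs2, which encodes the prostaglandin enzyme COX-2, rose after 3x4Gy (47.0 to 85.1 CPM against 7.15 to 35.0, log2 fold change 1.73, SE 0.32, edgeR adjusted p = 0.00118) and after 1x20Gy (36.4 to 81.7 CPM against 15.9 to 29.1, 1.39, SE 0.31, adjusted p = 0.00667). Icam1, an adhesion molecule, also rose after both (0.76, SE 0.15, adjusted p = 0.00182, and 0.57, SE 0.15, adjusted p = 0.0156).

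The neutrophil chemokine genes Cxcl2 and Cxcl1 rose after 1x20Gy on day 5. Cxcl2 measured 829 to 1790 CPM against 286 to 547 CPM (log2 fold change 1.59, SE 0.37, edgeR adjusted p = 0.00881) and Cxcl1 measured 67.4 to 138 CPM against 24.4 to 54.4 CPM (1.55, SE 0.39, adjusted p = 0.0141), without overlap. Cxcl3 was called as well (3.50, SE 0.87, adjusted p = 0.0133) from 1.06 to 7.83 CPM against 0 to 0.638. It had 172 counts over all 31 libraries. The 1x0Gy libraries lay under the level of the filter, so Cxcl3 was tested through libraries of other groups. As for Il1f9, its call adds no support to the 5 of 13 response genes counted above. After 3x4Gy Cxcl2 (0.71, adjusted p = 0.192) and Cxcl1 (1.07, adjusted p = 0.0727) were not called. Lcn2, a protein made by neutrophils and epithelium that binds iron carriers, was lower in all 3 comparisons (-2.51, -1.98 and -1.38, edgeR adjusted p = 0.00154, 0.0124 and 0.00910). Of the epithelial and tumour markers that passed the filter, 2 of 7, 4 of 7 and 1 of 6 were called lower in the same order. On day 13 another 1 was called higher, and their sum was 660 to 1879 against 637 to 862 CPM. The part of these cells in the Lcn2 result was not tested.

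**Figure D5:**
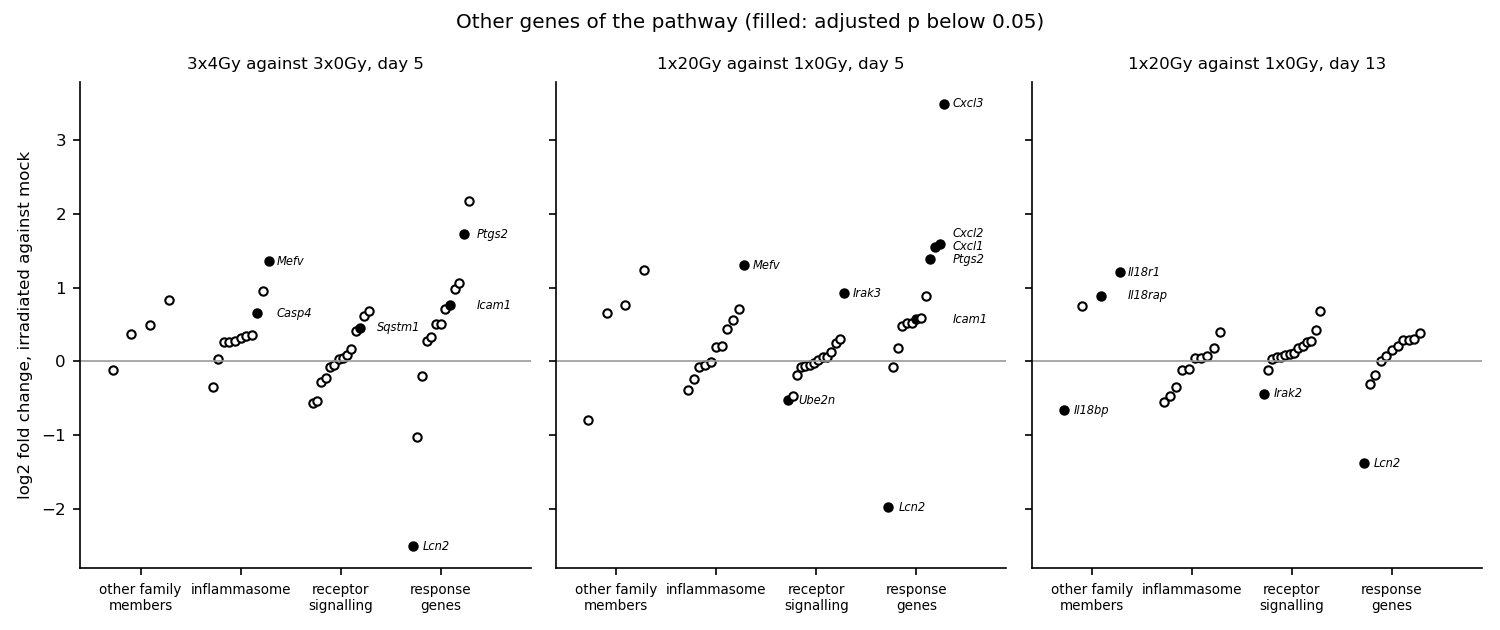
Log2 fold changes of the pathway genes that passed the filter, irradiated against mock, 1 panel per comparison and 1 column of points per list; filled, named points had an adjusted p under 0.05. After 1x20Gy on day 5 the filled points above 0 include 5 of 13 response genes, Cxcl3 with its few counts among them. On day 13 they include no response gene, and Lcn2 is the lowest point of each panel.

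Likeness between genes was described by the correlation of log2 CPM over the 31 libraries after the mean of each group was taken away, among 9600 genes with at least 5 CPM. These values share libraries and depth, and carry no test. The genes most like Il1b included Wdr41 and Evi2a (Pearson r = 0.89 for each). The most like Il1a were Igf1 and Gpr162 (both 0.79) and Rab2a (0.73), and the most like Il1rn were Ets2 (0.79), Pi4k2a (0.76) and Zkscan6 (0.75). Il1f9 was closest to Smpdl3b and Hdc (both 0.77), Hdc being the histamine-forming enzyme, and to Samhd1 (0.76), with Spearman's rho of 0.53, 0.76 and 0.72. Il1rl1 was closest to Inpp1 (0.80), Xlr4c (0.75) and Rnf157 (0.74), and Il33 to Mprip, 1810019J16Rik (both 0.71) and Mfge8 (0.70). For Il1r2 they were Rom1 (0.70), Smim3 (0.66) and Nedd4l (0.65), those for Il18 included Clta (0.71) and Bri3 (0.70), and those for Il1rap included Atr (0.68) and Galnt3 (0.65). Within the family the highest was Il1b with Il1rn (0.53), and Il1rn with Il1r2, which both rose on day 5, stood at 0.11 within groups.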

How the data were processed

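Bulk RNA of sorted CD45.2+ tumour leukocytes was sequenced in 31 libraries of 6 groups, with an RNA integrity number above 8.5 per the labels' protocols. The deposited values are counts, which the authors made per gene symbol, in 1 table per library of 38406 symbols and 5 summary lines. Listed in the submitters' processing notes are HTSeq 0.9.1, HISAT2 2.0.4, cutadapt 1.5 and bcl2fastq 2.20.0.422, and as builds mm10 and GRCm38. Annotation and strand setting are not given in the sources used here, so antisense and overlapping transcripts cannot be told apart from a gene.

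The main test was the two-sided quasi-likelihood test of edgeR 4.0.16 (R 4.3.3), after TMM scaling and a low-count filter (filterByExpr, count 10, total 15), with Benjamini-Hochberg adjustment over all genes tested and calls under 0.05. The 20 libraries of day 5 shared 1 fit, the 11 of day 13 had their own, and the difference between days used all 31. The standard error (SE) of a log2 fold change follows from its test statistic. Exact permutation tests used scipy 1.17.1. Log2 CPM used a prior count of 2. Per-length values used the summed exons of GENCODE M21. The fits were tested on simulated data with 200 changed genes. Total gene counts ran from 2641229 to 7541144, and chi-square per degree of freedom between replicates was 3.42 to 62.7, so no library was a copy of another.

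The members and the gene lists were chosen with earlier results of these data known. All members are named, and of each pathway list up to 3 called genes with the largest change per direction and comparison. For likeness, the 3 genes closest to each tested member, with a mean of at least 5 CPM, were taken, and a few of them are not reported here. Alternatives were DESeq2 1.42.0, upper quartile, relative log expression and library size scaling, no filter, the title number as a block, fits of other sets of libraries and each library left out. Protein sequences were not used here.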

Additional observations from a re-analysis of the deposited data

Results flagged for a closer look

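Each of the 10 genes was checked in each of the 6 groups for a library far from the rest of its group (Dixon's test at 95%), and 8 of the 60 checks stood out. Chance alone gives about 1 in 20.

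Il1b was highest in 3x0Gy library 2, at 8618 CPM, with the other 3 libraries from 2269 to 2568 CPM. Il1f9 was highest in 1x20Gy library 2 of day 5, at 68.1 CPM, with the others from 1.57 to 5.46 CPM. It was also highest in 3x4Gy library 6, at 11.3 CPM, with the others from 0.316 to 3.25 CPM, and lowest in 1x20Gy library 1 of day 13, at 1.38 CPM, with the others from 3.76 to 5.32 CPM. Il33 was lowest in 1x0Gy library 1 of day 5, at 1.02 CPM, with the others from 3.04 to 3.40 CPM. Il1r1 was highest in 3x4Gy library 1, at 2.76 CPM, with the others from 0 to 0.947 CPM. Il1rl1 was highest in 3x4Gy library 2, at 26.4 CPM, with the others from 13.5 to 17.4 CPM, and in 1x20Gy library 7 of day 13, at 24.9 CPM, with the others from 11.5 to 17.2 CPM.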

How the results depend on the processing

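Of the members' log2 fold changes, 359 values under another setting kept their direction and their side of the threshold, 5 lost the call, 3 gained it and 2 turned, and of those with 1 library left out 714 kept both, 10 lost the call, 2 gained it and 15 turned. The cause was not tested, a loss of precision in fits with fewer libraries included. The calls lost were Il1rn after 3x4Gy (given above, and 0.73, adjusted p = 0.0913, with the title number as a replicate block), Il33 after 1x20Gy on day 5 under that block (-2.58, adjusted p = 0.0505) and Il1f9 on day 13 in the fit of all libraries (2.56). In the fit of the 2 groups Il33 after 1x20Gy on day 5 did not pass the filter, so 0 members were called lower there. The values turned by library size scaling were Il18 after 3x4Gy (-0.011) and Il1rn on day 13 (-0.16), and that scaling moved the median of all genes to -0.10, -0.11 and -0.23 in the 3 comparisons. With 1 library left out, ranges that crossed 0 were, after 3x4Gy, Il1b -0.33 to 0.56, Il18 -0.10 to 0.24 and Il1rap -0.19 to 0.037, on day 13 Il1rn -0.052 to 0.17, Il1r2 -0.16 to 0.10 and Il1rl1 -0.25 to 0.18, for the regimens' difference Il1b -0.57 to 0.36, Il1rn -0.58 to 0.078 and Il33 -0.85 to 0.28, and for the mocks' difference Il1b -0.19 to 0.73. DESeq2 gave no adjusted p for Il1f9 on day 5.

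Genes called numbered 1477 after 3x4Gy (702 in a fit of the 2 groups, 1132 to 1815 with 1 library left out), 1028 after 1x20Gy on day 5 (556 to 1024) and 891 on day 13 (1533 with library size scaling, 306 to 1264). The regimens' difference had 0 calls, 1 with DESeq2, 1 with no filter and 0 to 1 with 1 library left out. The mocks had 0, 2, 1 and 0 to 1 in the same order. The difference between days had 51 calls, 192 with DESeq2, 5 with upper quartile scaling, 85 with no filter, 16 with the replicate block and 1 to 110 with 1 library left out. Same-numbered libraries had correlations from -0.268 to 0.400. Of these 7 of 12 were over 0.1, short of the rule that every pair must be, so the title numbers were not taken as pairs, but 8 of 12 irradiated libraries correlated best with their own number, a hint of pairing from the data and not the design. Depth limits Il1f9, Il33, Il1rap and Il1r1, with few counts per library.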
